A study of Mus musculus with 4 samples.

Results

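The genes described here are 41 RefSeq transcripts of the cell cycle, listed by accession because their products copy DNA or divide the chromosomes. They were matched to the arrays by identical identifiers, and 40 of the 41 were present, out of 33226 identifiers in all. The missing entry was NM_009830, a transcript of the cyclin gene Ccne2. The 40 genes were read by 52 probes on 61 spots, 31 of them by 1 probe and 9 by several, and they were divided into 20 genes of mitosis and 20 of DNA replication.

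RNA came from 4 cell populations derived from cells labelled as mouse embryonic stem cells in medium without leukemia inhibitory factor, with 1 array per population and no replicates. Flk1+ MPCs were Flk1+ mesodermal precursor cells sorted at day 4.5. PCBs were PDGFRα+Flk1- cardioblasts at day 5.5 of cultures given CsAYTE, which is Cyclosporin A together with Y27632 (a ROCK inhibitor), Trolox (an antioxidant) and EW7197 (an ALK5 inhibitor), and sfPCBs were the spontaneously formed counterparts at day 5.5, without CsAYTE. The protocol names DMSO as the control vehicle. M+CMs were αMHC+ cardiomyocytes at day 10.5. The paper describes M+CMs as cardiomyocytes derived from PCBs. Their label does not say whether CsAYTE had been given, and the labels do not name the stem cell line or give a genotype. The αMHC promoter driving GFP, which marks M+CMs, is active in cardiomyocytes. In the study's protocol, sorted Flk1+ MPCs were placed on OP9 stromal feeder cells, whose division had been blocked with mitomycin C, or on gelatin. The labels do not say which of the surfaces was used, although the paper reports no induction of PCBs in cultures without feeder cells.

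In dividing cells, cyclins switch on cyclin-dependent kinases in turn. Licensing factors load the Mcm helicase onto origins in G1, polymerases and nucleotide-making enzymes serve DNA synthesis in S phase, and Cdk1, the Aurora kinases and Plk1 drive mitosis, whose exit depends on the anaphase promoting complex. Transcripts of most of these genes are scarce in resting cells and rise as cells enter S or G2 phase. Mouse cardiomyocytes still divide before birth and largely leave the cell cycle soon after it.

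Signals are Agilent Feature Extraction processed signals in arbitrary units, scaled so that the 75th percentile of each array was the same. Between 73.3% and 76.2% of the 43020 non-control spots per array were well above background, and all 40 genes were detected in all 4 arrays. A level is compared only with the same gene in another population. The error given with a log2 ratio combines the software's errors of both signals (median 0.20 for M+CMs against PCBs), and it does not cover differences between cultures, so no test between populations was possible. Differences of at least 2-fold were counted. In sorted bulk RNA, fewer dividing cells and less RNA of these genes per cell cannot be told apart.

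Marker genes were read first as a check of the labels. Kdr, which encodes Flk1, had signals of 24858 for Flk1+ MPCs, 5511 for sfPCBs, 2363 for PCBs and 3993 for M+CMs. Pdgfra, the surface marker of PCBs, had 7237, 3647, 9136 and 918 in the same order, so that sfPCBs were below Flk1+ MPCs for it. Myh6, which encodes αMHC, was 41 for Flk1+ MPCs, 43 for sfPCBs, 6157 for PCBs and 112738 for M+CMs. The summed signal of 9 listed OP9 stromal markers was 3294 for Flk1+ MPCs, 116725 for sfPCBs, 49857 for PCBs and 22162 for M+CMs. Of the 9 genes, 7 were highest in sfPCBs. No array of OP9 cells was in the series, and whether these signals came from feeder cells was not tested. Lpl alone gave 15865 of the M+CM sum and was highest in M+CMs. Of 6 endothelial genes, 5 were detected in any array, and all 5 were highest in sfPCBs, with a summed signal over the 6 of 3617 and between 272 and 466 elsewhere. The summed signal of 7 blood cell genes was 337 for Flk1+ MPCs, 3451 for sfPCBs, 3186 for PCBs and 250 for M+CMs. That of 5 endoderm genes was 987, 775, 440 and 43.8 in the same order, and that of 5 genes of pluripotent cells was 10722, 1570, 739 and 514. Single genes made up much of some sums. Hbb-bh1 gave 2781 of the blood sum in sfPCBs and 2525 in PCBs, and Afp gave 376 of the endoderm sum in PCBs. The endoderm genes Sox17 and Foxa2 were 498 and 457 in Flk1+ MPCs, against 7.60 and 32.8 in PCBs. Postn and Lum of the stromal list were near background in Flk1+ MPCs (10.2 and 3.35) and at 12884 and 8782 in sfPCBs. In PCBs they were only 13.2 and 30.2, whereas Col1a1 of the same list was 28386 there and 58341 in sfPCBs. Against sfPCBs, 5 of the 9 stromal genes were at least 2-fold lower in PCBs and 1, Lpl, was higher. Thy1 was the 1 gene of the 9 with less signal in sfPCBs (102) than in Flk1+ MPCs (1065). Its PCB signal was 147. The signal of Hprt, often used as a reference gene, was 210 for Flk1+ MPCs, 2937 for sfPCBs, 2669 for PCBs and 80.2 for M+CMs. The part of these cells and genes in the differences below was not tested.

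All 40 genes had their lowest signal in M+CMs. Against PCBs, 39 of 40 genes (97.5%) were at least 2-fold lower in M+CMs and 0 were higher, whereas 15.3% of the 26134 identifiers detected in either array were at least 2-fold lower and 20.5% were higher. The median log2 ratio of the 40 genes was -3.52, beside 0.16 for all identifiers. The M+CM signal was 8.72% of the PCB signal at the median, with a range from 2.05% for Cdc6 to 53.2% for Chek1. At least 4-fold lower were 37 of the 40 genes, against 6.72% of all identifiers, and at least 8-fold lower were 30, against 3.37%. The log2 ratio was below 0 by more than 2 errors for all 40. The shares over all identifiers depended on the scaling. They were 19.1% lower and 16.2% higher without scaling, where 40 of the 40 genes were at least 2-fold lower. With the median of 10 reference genes as the centre they were 10.1% lower and 33.9% higher, and 39 of the 40 genes were at least 2-fold lower. The reference genes were themselves unequal, with log2 ratios of M+CMs to PCBs from -5.06 for Hprt to 1.76 for Pgk1. Mitosis genes (median log2 ratio -3.55, n = 20) and DNA replication genes (-3.44, n = 20) lay close to each other.

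The other comparisons gave much smaller differences. Between PCBs and sfPCBs the median log2 ratio of the 40 genes was 0.08, beside 0.03 for all identifiers. Ccne1 alone was at least 2-fold higher in PCBs and 0 genes were at least 2-fold lower, with 6.18% and 7.51% of 25232 identifiers. Between PCBs and Flk1+ MPCs the median was -0.42, beside -0.20 for all identifiers. Bub1, Mcm2 and Mcm6 were at least 2-fold lower in PCBs (7.5% of the 40, with 12.1% of 25855 identifiers), and 0 were at least 2-fold higher (12.8% of identifiers). Without scaling the shares of identifiers were 9.31% lower and 15.0% higher, with reference genes as the centre they were 8.21% and 16.4%, and the count of genes at least 2-fold lower was 1 with either. By direction alone, 35 of 40 genes were below 0 (29 without scaling and 26 with reference genes as the centre), and 29 were below the median of all identifiers.

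**Figure D1:**
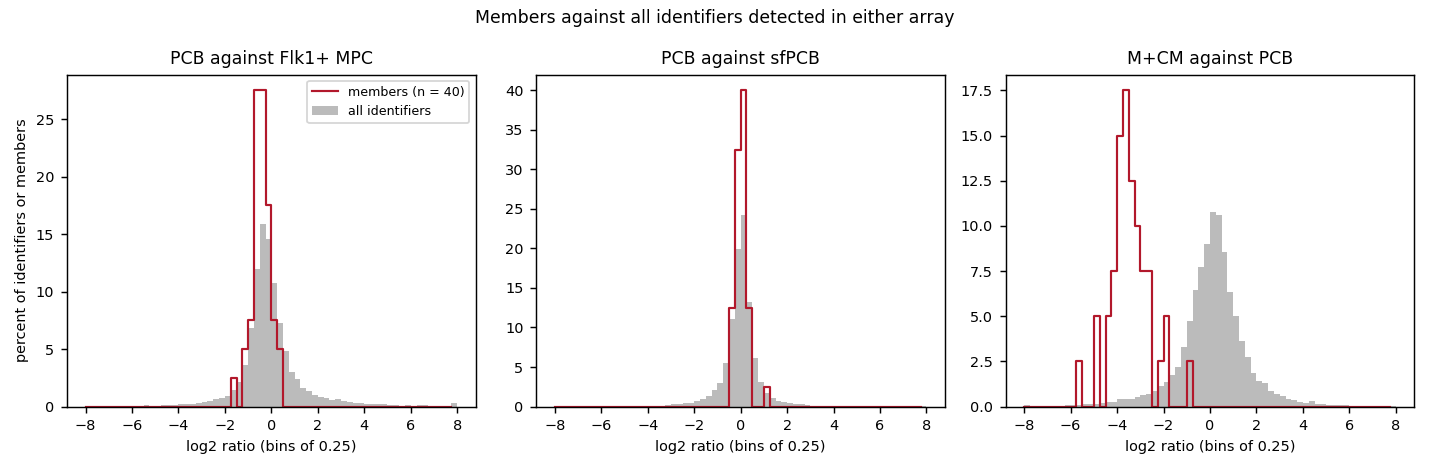
Distribution of log2 ratios in bins of 0.25 for all identifiers detected in either array (grey bars, percent of identifiers) and for the 40 DNA replication and mitosis genes (red line, percent of genes) in 3 panels (PCBs to Flk1+ MPCs, PCBs to sfPCBs and M+CMs to PCBs), with 1 array per population. The 40 genes lie within the bulk of all identifiers in the first pair of panels, and in the third they lie at a median of -3.52 while the median of all identifiers is 0.16.

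The promoters of some of these genes are shown, with sequence features known from the promoters of cell cycle genes. Whether these features bear on the differences in M+CMs was not tested. Promoter windows of RefSeq (assembly GRCm38.p6), from 250 bases before to 50 after the start of the gene, were found for 34 of the 40 genes. The windows were searched on both strands for the CHR element TTTGAA, a binding element of the MuvB complexes that serve mitotic genes, for the CCAAT box bound by NF-Y, and for the E2F element TTTNNCGC, in which each N was C or G. In the windows of these genes no CHR match overlapped a CCAAT match, and E2F matches on opposite strands can overlap. The 150 bases before the start are printed 5′ to 3′ on the strand of the gene. They are in lower case, with matches to the motifs on either strand in capitals. A match that begins before the printed bases, as in Mcm5, is shown only in part. The first set holds mitosis genes with CHR and CCAAT matches.
Cdk1, chr10:69352913-69353062, minus strand: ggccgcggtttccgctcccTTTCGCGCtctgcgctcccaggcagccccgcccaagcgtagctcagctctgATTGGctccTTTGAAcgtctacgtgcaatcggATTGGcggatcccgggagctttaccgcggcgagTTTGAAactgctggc
Ccnf, chr17:24251410-24251559, minus strand: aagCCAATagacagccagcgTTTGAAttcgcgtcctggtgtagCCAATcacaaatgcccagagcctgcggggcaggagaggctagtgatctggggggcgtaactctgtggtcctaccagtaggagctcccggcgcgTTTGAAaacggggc
Cdc20, chr4:118437344-118437493, minus strand: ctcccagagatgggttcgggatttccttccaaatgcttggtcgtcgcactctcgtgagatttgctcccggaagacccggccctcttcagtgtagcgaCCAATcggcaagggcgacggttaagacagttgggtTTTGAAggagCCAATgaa
Top2a, chr11:99024190-99024339, minus strand: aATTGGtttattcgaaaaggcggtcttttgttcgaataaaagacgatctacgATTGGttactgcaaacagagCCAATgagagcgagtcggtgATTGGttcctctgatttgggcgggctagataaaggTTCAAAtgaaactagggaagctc

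The second set holds DNA replication genes with E2F matches, and Bub1, a mitosis gene whose window had CCAAT matches and no match to the CHR or E2F letters.
Mcm5, chr8:75109359-75109508, plus strand: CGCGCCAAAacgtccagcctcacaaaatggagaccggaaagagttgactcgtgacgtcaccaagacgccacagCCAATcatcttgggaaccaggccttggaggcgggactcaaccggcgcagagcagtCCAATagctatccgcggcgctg
Mcm6, chr1:128359706-128359855, minus strand: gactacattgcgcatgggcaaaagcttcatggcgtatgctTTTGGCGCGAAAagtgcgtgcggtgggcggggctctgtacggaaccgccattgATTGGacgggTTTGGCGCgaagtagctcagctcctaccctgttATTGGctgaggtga
Cdc6, chr11:98908001-98908150, plus strand: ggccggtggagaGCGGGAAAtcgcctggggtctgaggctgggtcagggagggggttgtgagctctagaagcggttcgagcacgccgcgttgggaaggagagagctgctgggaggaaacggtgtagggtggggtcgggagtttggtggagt
Bub1, chr2:127831860-127832009, minus strand: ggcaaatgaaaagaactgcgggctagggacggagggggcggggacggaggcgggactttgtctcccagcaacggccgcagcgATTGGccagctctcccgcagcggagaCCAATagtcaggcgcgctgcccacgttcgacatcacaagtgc

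The CHR letters were found in 13 of 17 windows of mitosis genes (76.5%), in 2 of 18 windows of DNA replication genes (11.1%, Mcm7 having more than 1 window) and in 16.0% of 21263 windows of protein-coding genes. CCAAT was found in 15 of 17 (88.2%), 12 of 18 (66.7%) and 38.2%. The E2F letters were found in 1 of 17 (5.88%), that of Cdk1, in 7 of 18 (38.9%) and in 2.86%. Every CHR window of the 40 genes also held CCAAT, a combination present in 6.38% of all windows. These shares are descriptions of letters in the windows and carry no test. Within the classes the ranges of the signal ratios overlapped between genes with and without a motif. Mitosis genes with CHR letters had a median log2 ratio of M+CMs to PCBs of -3.53 (n = 13, from -4.32 to -2.56), and the 4 without had -3.94 (from -4.18 to -3.07). DNA replication genes with E2F letters had -3.88 (n = 7, from -5.61 to -2.05), and the 10 without had -2.74 (from -4.78 to -0.91). The sizes for Cdc6 (-5.61) and Chek1 (-0.91) are uncertain because their probes were dim. DNA replication genes with CHR letters had -2.78 (n = 2), and the 15 without had -3.70. With CCAAT they had -3.505 (n = 11), and the 6 without had -3.22. Mitosis genes had -3.57 with CCAAT (n = 15) and -3.51 without (n = 2). The 1 mitosis gene with E2F letters had -3.30, and the 16 without had -3.72.

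**Figure D2:**
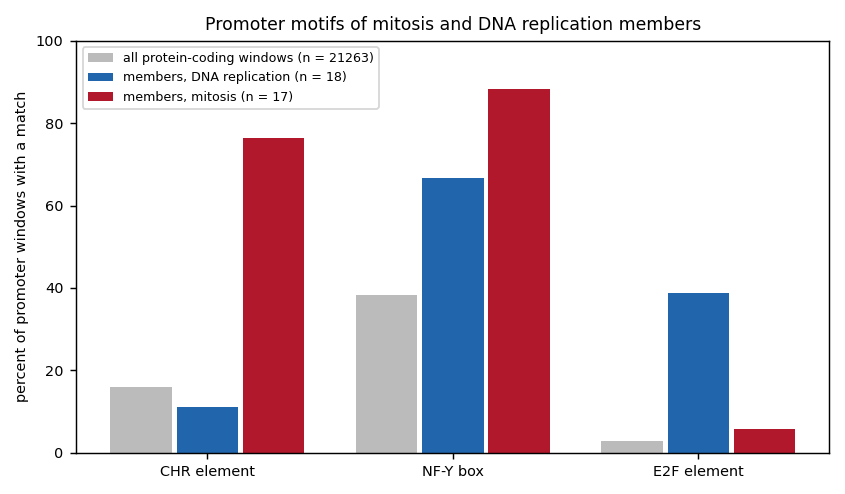
Percent of promoter windows (300 bases each) with at least 1 match to the CHR element, the NF-Y box CCAAT or the E2F element, for all protein-coding genes (grey, 21263 windows), DNA replication genes (blue, 18 windows) and mitosis genes (red, 17 windows). CHR matches are in 76.5% of mitosis windows and E2F matches in 38.9% of DNA replication windows, against 16.0% and 2.86% of all windows.

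Cyclins A and B and Cdk1 drive entry into mitosis. All 5 genes of their group, which also holds cyclin F, were lower in M+CMs, with a median log2 ratio to PCBs of -3.33. Ccna2 (NM_009828), a cyclin of S and G2 phase, had signals of 21504 for Flk1+ MPCs, 17062 for sfPCBs, 16075 for PCBs and 1908 for M+CMs. Ccnb1 (NM_172301) had 7415, 4214, 4875 and 321 in the same order, and Ccnb2 (NM_007630) had 33490, 28921, 30261 and 3012. Both are B-type partners of Cdk1, and their M+CM signals stood apart from the rest, with log2 ratios to PCBs of -3.93 (error 0.12) and -3.33 (error 0.20). The lowest ratio of the group was that of Ccnf (NM_007634), an F-box protein that marks targets for degradation, with signals of 20999, 12912, 13948 and 746 and a log2 ratio of -4.23. The highest ratio was that of Ccna2 (-3.07).

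Cdk1 (NM_007659), the kinase bound by the A and B cyclins, had mean signals of 1352, 1026, 1129 and 115 over 3 probes, and a log2 ratio of M+CMs to PCBs of -3.30. Its probes gave ratios between -3.93 and -2.06, and thus differed in size by 1.87 and not in direction. The probe with the smallest ratio was also the dimmest, with 131, 70.5, 113 and 27.3. For this group the log2 ratios of PCBs to sfPCBs lay between -0.09 and 0.21. Single probes ran from -0.01 to 0.58 for Ccnb1 and from -0.17 to 0.69 for Cdk1.

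The mitotic kinases, the passenger protein survivin and Foxm1 had a median log2 ratio of -3.87 in M+CMs against PCBs, with a narrow range. Aurka, the kinase of spindle poles, was the lowest at -4.01 (error 0.20), with signals of 28148 for Flk1+ MPCs, 19893 for sfPCBs, 21358 for PCBs and 1321 for M+CMs. Foxm1, a transcription factor of G2 and mitotic genes, was the highest at -3.43 (error 0.17), with 1139, 1046, 1025 and 95.3. Birc5, which encodes survivin, was nearly level before day 10.5, with 11010, 11016 and 11037, and was 712 in M+CMs. Aurkb (-3.67), the partner of survivin in the passenger complex, and Plk1 (-3.87), a kinase of mitotic entry and the spindle, lay between these. Plk1 was also lower at day 5.5, with 58194 for Flk1+ MPCs and 36761 for PCBs, a log2 ratio of -0.66.

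Genes of the spindle checkpoint and partners of the anaphase promoting complex had a median log2 ratio of -3.53 in M+CMs against PCBs. Bub1, a checkpoint kinase of kinetochores, was the lowest at -4.18 (error 0.06), and it differed from the other genes earlier as well. Its signal was 18899 for Flk1+ MPCs, 6848 for sfPCBs, 5923 for PCBs and 327 for M+CMs. Its only probe was spotted 10 times, with an SD between spots of 0.03 to 0.09 on the log2 scale. The log2 ratio to Flk1+ MPCs was -1.46 in sfPCBs and -1.67 in PCBs, the lowest of the 40 genes for PCBs. Of the related genes, Bub1b, which encodes the checkpoint protein BubR1, was -0.68 in PCBs against Flk1+ MPCs, and Mad2l1, which encodes the checkpoint protein Mad2, was -0.16. Mad2l1 had the highest ratio of M+CMs to PCBs in the group (-3.07, error 0.12), with signals of 2984, 2403, 2667 and 318. Cdc20, an activator of the anaphase promoting complex, was -0.85 in PCBs against Flk1+ MPCs and -3.53 in M+CMs against PCBs. Ube2c, its ubiquitin-conjugating enzyme, was -0.24 and -3.41.

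Spindle motors, the centromere histone and chromosome proteins of mitosis had a median log2 ratio of -3.07 in M+CMs against PCBs and a wider range. Top2a (NM_011623), the topoisomerase that untangles sister chromatids, was the lowest at -4.32 (error 0.20). Its signals were 13967 for Flk1+ MPCs, 9298 for sfPCBs, 9096 for PCBs and 454 for M+CMs. Mki67 (NM_001081117), which encodes the Ki-67 antigen used to stain cycling cells, had 30285, 30952, 27021 and 3219. The M+CM signal of Mki67 was thus 11.9% of that in PCBs, and that of Top2a was 4.99%. The highest ratio was that of Cenpa (-2.56, error 0.20), the histone H3 variant of centromeres, with 16996, 12171, 13520 and 2294. Kif11, the motor that separates spindle poles, had -3.86, and Kif23, a motor of cytokinesis, had -2.98.

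**Figure D3:**
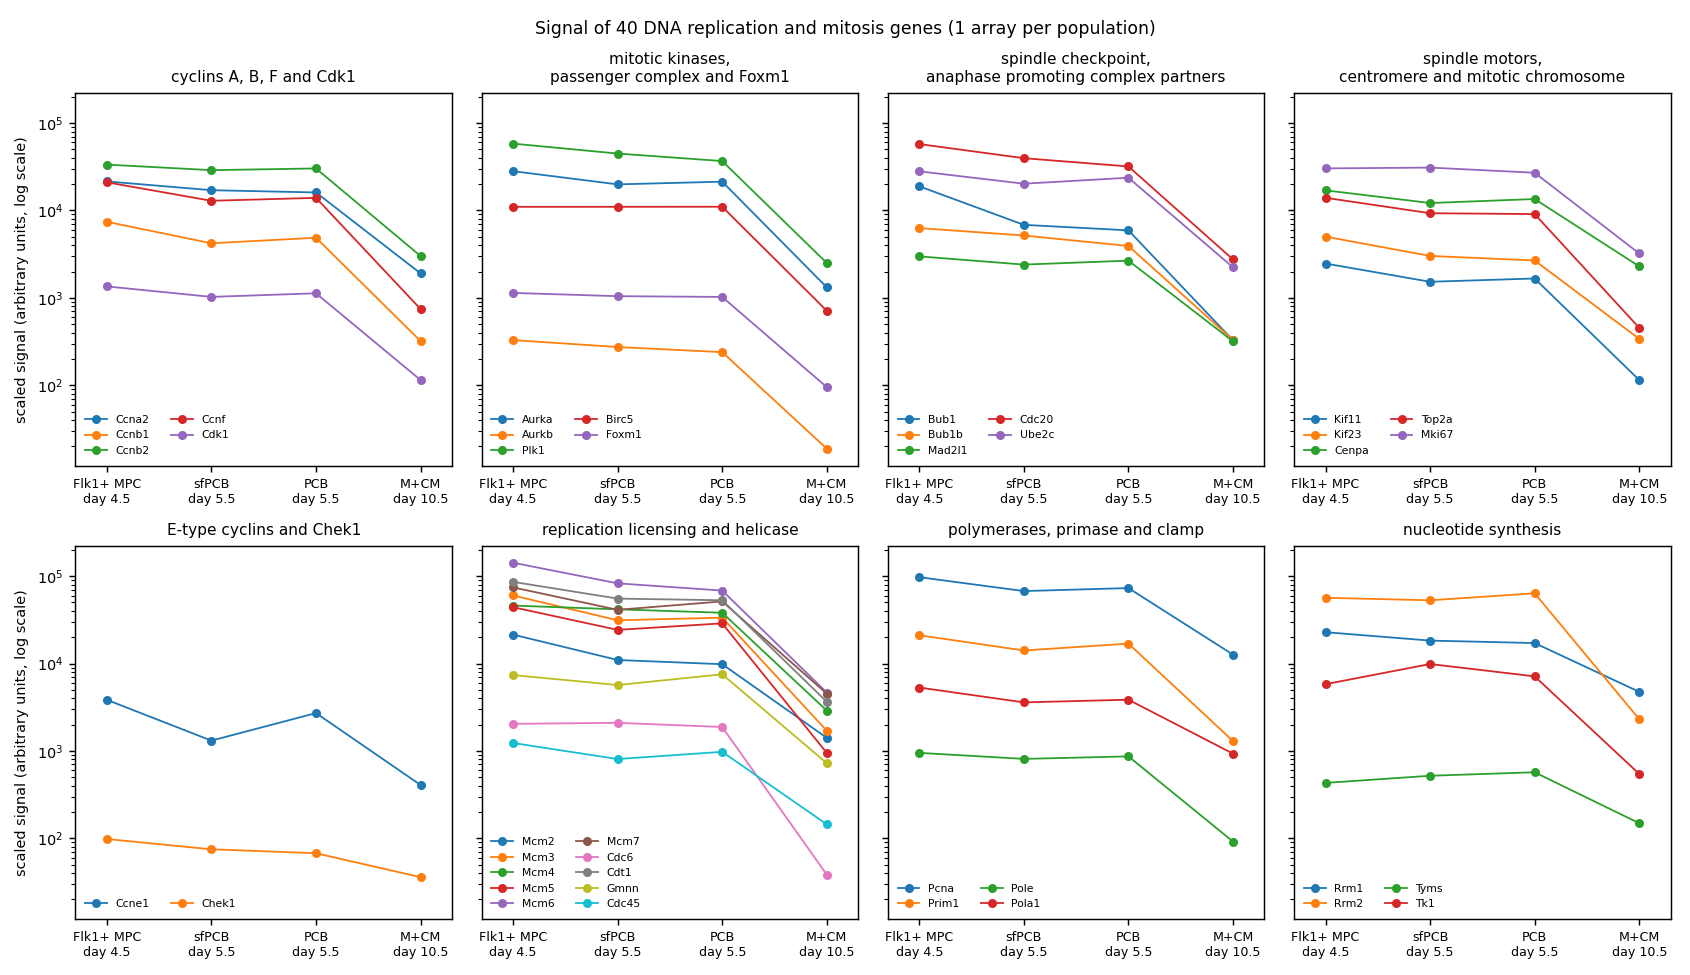
Scaled signal (arbitrary units, log scale) of the 40 genes in Flk1+ MPCs (day 4.5), sfPCBs and PCBs (both day 5.5) and M+CMs (day 10.5), in 1 panel per role, with 1 point per gene and array. Lines join the points of 1 gene and are not a time course, since sfPCBs and PCBs are parallel populations. Every line ends lowest in M+CMs, and Ccne1 is at 1312 in sfPCBs against 2710 in PCBs.

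Ccne1 and Chek1 stood apart from the rest. Ccne1 (NM_007633), the E-type cyclin that starts S phase with Cdk2, had signals of 3843 for Flk1+ MPCs, 1312 for sfPCBs, 2710 for PCBs and 408 for M+CMs. It was the gene with the highest log2 ratio of PCBs to sfPCBs among the 40 (1.05, error 0.14), and its probes gave 0.97 and 1.13. The count of 1 gene at least 2-fold higher did not hold without scaling, with an offset of 50, with the brightest probe alone or with reference genes as the centre, each of which gave 0. Against Flk1+ MPCs, the log2 ratio of Ccne1 was -1.55 in sfPCBs and -0.50 in PCBs. In the sfPCB array, 7 of the 9 listed stromal markers were at their highest, and their part in this value was not tested. Chek1, the kinase that halts the cycle when replication stalls, had signals of 98.1, 74.9, 67.5 and 35.9 in the order above, and a log2 ratio of M+CMs to PCBs of -0.91 (error 0.26). With the 75th percentile scaling it was the one gene that did not reach 2-fold between M+CMs and PCBs, and its log2 ratio of M+CMs to Flk1+ MPCs was -1.45. All 40 genes reached 2-fold between M+CMs and PCBs with quantile normalization, no scaling, median scaling or the deposited table. Chek1 was read by 1 dim probe, with the lowest signals of the 40 in Flk1+ MPCs, sfPCBs and PCBs, so the size of its ratio is uncertain.

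Replication licensing and helicase genes, the largest group with 10 members, had a median log2 ratio of -3.79 in M+CMs against PCBs. Cdc6, which loads the Mcm helicase, had the lowest ratio of all 40 genes (-5.61, error 0.18). Its signals over 2 probes were 2042 for Flk1+ MPCs, 2097 for sfPCBs, 1878 for PCBs and 38.5 for M+CMs, a difference of 48.8-fold between PCBs and M+CMs, and its probes gave -5.72 and -5.50. Both probes were dim in M+CMs (28.7 and 51.5), so the size and the rank of this ratio are uncertain. Before day 10.5 its log2 ratios to Flk1+ MPCs were 0.04 in sfPCBs and -0.12 in PCBs, and the probes gave -0.35 and 0.11 for PCBs. The highest ratio of the group was that of Cdc45 (-2.76, error 0.21), a part of the active helicase, with 1232, 807, 976 and 145. Cdt1, which acts with Cdc6 in loading, and Gmnn, which encodes the Cdt1 inhibitor geminin, had -3.86 and -3.38. Gmnn was also higher in PCBs than in sfPCBs, by 0.41 on the log2 scale (error 0.20).

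The 6 Mcm genes encode the subunits of 1 ring-shaped helicase, and their ratios were unequal. In M+CMs against PCBs the log2 ratio ran from -4.92 for Mcm5, through -4.30 for Mcm3, -3.88 for Mcm6, -3.72 for Mcm4 and -3.51 for Mcm7, to -2.80 for Mcm2 (error 0.20 each). Mcm5 and Mcm2 thus differed by more than 2 errors. Each Mcm gene was read by 1 probe, and the error does not cover differences between probes of a gene, which reached 2.83 for Pole. Differences between the Mcm genes can therefore not be told apart from differences between probes. In PCBs against Flk1+ MPCs the order was another. Mcm2 (-1.12) and Mcm6 (-1.06) were the lowest, and Mcm4 (-0.27) was the highest. Mcm2 had 21418 for Flk1+ MPCs, 10976 for sfPCBs, 9823 for PCBs and 1412 for M+CMs, and Mcm6 had 142307, 82683, 68364 and 4659. In sfPCBs against Flk1+ MPCs their log2 ratios were -0.96 and -0.78.

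Polymerase, primase and clamp genes had a median log2 ratio of -2.88 in M+CMs against PCBs. Pcna (NM_011045), the sliding clamp of replication, which also serves DNA repair, had signals of 97203 for Flk1+ MPCs, 67451 for sfPCBs, 73010 for PCBs and 12640 for M+CMs. Its M+CM signal was 17.3% of that in PCBs (log2 ratio -2.53, error 0.20). The primase subunit gene Prim1 was the lowest of the group (-3.70, error 0.20), with 21060, 14101, 16888 and 1298, and Pola1, the catalytic subunit of polymerase alpha, was the highest (-2.05, error 0.20), with 5311, 3593, 3856 and 931. Pole, the catalytic subunit of polymerase epsilon, had probes that differed. A bright probe had a log2 ratio of -4.65, with a signal of 549 in M+CMs, and a dim probe had -1.82, with 60.0, 56.8, 54.3 and 15.4. The dim probe was not well above background in M+CMs. The mean of both probes was -3.24, so that the size for Pole is uncertain and its direction is not.

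With the 75th percentile scaling, nucleotide synthesis genes were the one group whose median was higher in PCBs than in Flk1+ MPCs (0.23, n = 4), although 0 of the 4 passed 2-fold. Tyms, which makes thymidylate, had 431 for Flk1+ MPCs, 520 for sfPCBs, 570 for PCBs and 149 for M+CMs. Tk1, the thymidine kinase of cycling cells, had 5803, 9870, 7134 and 546. It was the highest of the 40 genes in sfPCBs against Flk1+ MPCs (0.77) and the lowest in PCBs against sfPCBs (-0.47, error 0.20). The ribonucleotide reductase subunit genes, read by 1 probe each, had unequal ratios of M+CMs to PCBs. Rrm2, the subunit regulated with S phase, had 56518, 52913, 63600 and 2307 and a log2 ratio of M+CMs to PCBs of -4.78 (error 0.20), the lowest of the group. Rrm1, the large subunit, had 22825, 18296, 17148 and 4743 and -1.85 (error 0.20), the highest.

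**Figure D4:**
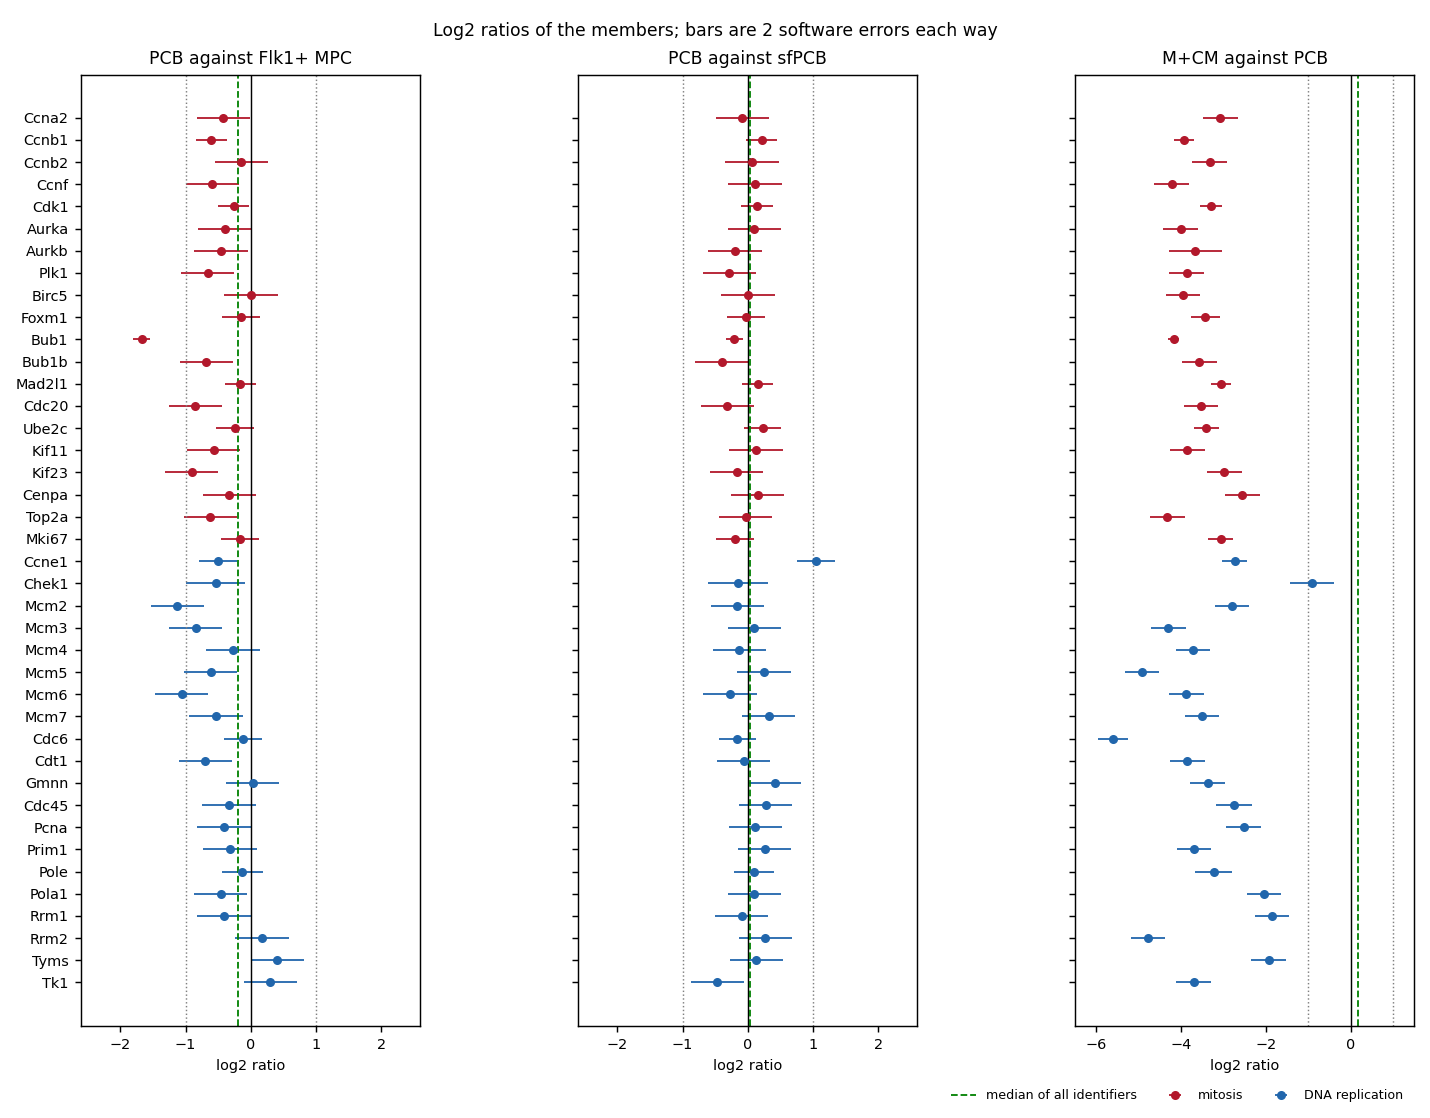
Log2 ratios of the 40 genes, from left to right PCBs to Flk1+ MPCs, PCBs to sfPCBs and M+CMs to PCBs, with bars of 2 software errors each way, mitosis genes in red and DNA replication genes in blue. Dotted lines mark 2-fold differences and the green dashed line the median of all identifiers. In the third panel every bar lies below 0, from -5.61 for Cdc6 to -0.91 for Chek1.

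The lowest position, that of M+CMs, was shared by all 40 genes. Flk1+ MPCs had the highest signal for 33 of 40 genes, PCBs for 4 (Birc5, Gmnn, Rrm2 and Tyms) and sfPCBs for 3 (Mki67, Cdc6 and Tk1). The highest position depended on the scaling, as Flk1+ MPCs held it for 24 genes and sfPCBs for 14 without scaling, and for 22 and 10 with reference genes as the centre. In 18 genes the order from high to low was Flk1+ MPCs, PCBs, sfPCBs and M+CMs, and in 15 sfPCBs lay above PCBs. PCBs and sfPCBs, neighbours in these orders, mostly did not differ beyond their error. Of the 40 ratios of PCBs to sfPCBs, 4 were beyond 2 errors (Ccne1 and Gmnn higher, Bub1 and Tk1 lower). Membership of this list depended in part on the number of spots. Bub1 (-0.21) had an error of 0.06 from 10 spots, whereas Bub1b (-0.40), with 1 spot and an error of 0.20, did not pass. Gmnn was at the limit (0.409, error 0.204). The list is given for the scaled signals only, and without scaling the median of all identifiers shifted by -0.15. Between PCBs and Flk1+ MPCs, 23 of 40 ratios were below 0 by more than 2 errors and 0 were above, counts that became 13 and 2 without scaling and 8 and 3 with reference genes as the centre. For sfPCBs against Flk1+ MPCs the median was -0.48, beside -0.22 for all identifiers, with 2 genes at least 2-fold lower (Bub1 and Ccne1, 5.0%, against 12.7% of identifiers) and 0 higher (13.1%). Over identifiers the lower and higher shares were 7.40% and 17.7% without scaling, 7.30% and 17.8% with reference genes as the centre, and 18.6% and 11.1% with median scaling, where 7 of the 40 genes were lower. The ratios of PCBs and of sfPCBs to Flk1+ MPCs share the same Flk1+ MPC array.

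M+CMs were also set against Flk1+ MPCs, the array with the lowest summed signal of the listed stromal markers (3294, beside 22162 for M+CMs). Of the M+CM sum, Lpl alone gave 15865. All 40 genes were at least 2-fold lower in M+CMs, against 21.5% of 26497 identifiers, and 0 were higher, against 22.2%. With reference genes as the centre these shares were 10.6% and 40.9%, and 38 of the 40 genes were at least 2-fold lower. With median scaling they were 27.8% and 18.0%, and all 40 were lower. The median log2 ratio was -3.94, beside 0.00 for all identifiers, and the range ran from -5.85 for Bub1 to -1.45 for Chek1. Over the same arrays the summed signal of 8 cardiomyocyte genes went from 11590 in Flk1+ MPCs, 9443 in sfPCBs and 714124 in PCBs to 1876580 in M+CMs.

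Genes of the cell cycle outside the 40 were taken from lists of 92 genes, of which 91 were on the arrays. In M+CMs against PCBs, 84 of the 91 were at least 2-fold lower (15.3% of identifiers) and 0 were higher (20.5%), with a median log2 ratio of -3.29. All 17 kinetochore and checkpoint genes passed 2-fold (median -3.74), from Cenph (-4.94), a kinetochore subunit, to Bub3 (-1.44), a checkpoint protein. So did all 19 genes of the spindle, cytokinesis and mitotic exit (median -3.59), from the spindle motor Kif15 (-4.55) to Cep55 (-1.79), which acts in abscission. Of 30 genes of origins, forks and DNA synthesis, 27 passed (median -2.99). Gins3, of the GINS helicase subunits, was the highest (-0.47). Of 16 E2F, DREAM and cyclin-dependent kinase regulators, 14 passed (median -2.70), from the kinase gene Melk (-4.65) to Cdk2 (-0.55), the partner of E-type cyclins. Cdk2 had signals of 1594 for Flk1+ MPCs, 1727 for sfPCBs, 1739 for PCBs and 1185 for M+CMs. Of 9 condensin and cohesin genes, 7 passed (median -2.17), from Ncapg of condensin (-3.87) to Smc3 of cohesin (-0.59), a complex that also shapes chromosomes between divisions.

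At day 5.5 the other cell cycle genes, like the 40, differed little. In PCBs against sfPCBs, 0 of 91 passed 2-fold in either direction (median 0.06), where 6.18% of identifiers were higher and 7.51% lower, although E2f2 had 0.76 and Nek2 0.71. In PCBs against Flk1+ MPCs, 2 of 91 were at least 2-fold higher (12.8% of identifiers) and 3 lower (12.1%), with a median of -0.28. The higher ones were the E2F family genes E2f2 (1.35) and E2f8 (1.25), and the lower ones were Orc1 (-1.59), the large subunit of the origin recognition complex, Kif18a (-1.20), a motor that limits chromosome movements, and Sgo2a (-1.01), which protects centromeric cohesion. These 5 and Nek2, a kinase of centrosomes, were named after their values were seen.

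**Figure D5:**
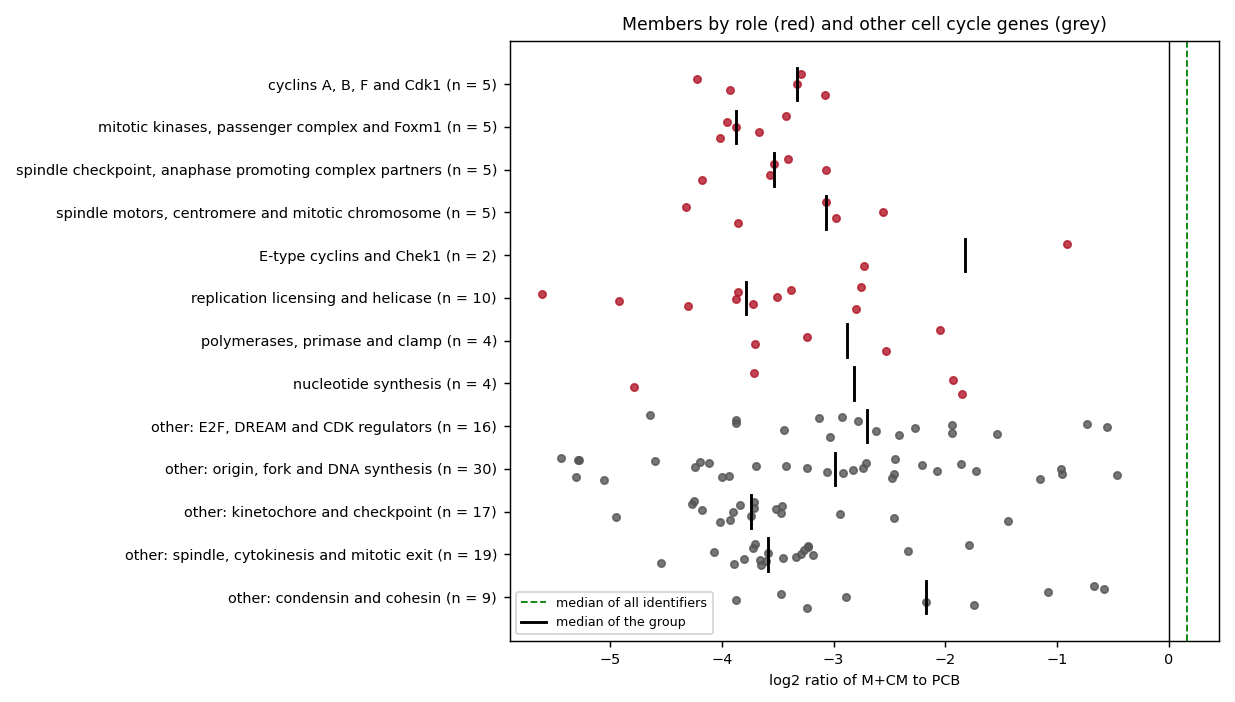
Log2 ratio of M+CMs to PCBs for the 40 genes by role (red points) and for 91 other cell cycle genes by list (grey points), with the median of each group as a black bar and the median of all identifiers (0.16) as a green dashed line. All points lie below 0, and the points nearest to 0 are Gins3 (-0.47), Cdk2 (-0.55) and Smc3 (-0.59).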

How the data were processed

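The authors hybridized Cy3-labelled RNA of each population to a 1-colour Agilent array and deposited the spot intensities written by the scanner software, Feature Extraction 11.5.1.1 (background-subtracted processed signals, their errors and flags), not normalized between arrays. A deposited table holds log2 values that equalled the log2 mean processed signal per probe without scaling, to within 0.01 for at least 39346 of 39429 probes per array. Its centring and scaling step is not stated. From the intensities, control and flagged spots (87 to 144 per array) were removed, and arrays were scaled to their 75th percentile. Spots of a probe and probes of an identifier were averaged on the log2 scale, using probes detected in at least 1 array. A probe was detected where at least 0.5 of its spots were well above background. Comparisons covered identifiers detected in either array. Symbols came from RefSeq (GRCm38.p6), which matched 20502 of 20845 NM_ identifiers. The array design was annotated on mm9, from which no coordinates were taken.

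With 1 array per population there was no test, and the number of arrays limits the precision. The rule for genes named with all signals took cyclins, Cdk1, Mki67, Top2a, Pcna, the highest and lowest of M+CM to PCB in each role, and genes whose probes differed by over 1 on the log2 scale, and it allowed other members to be named with log2 ratios. Signals of Birc5, Plk1, Mcm2, Mcm6, Tyms, Tk1 and Cdk2 were added after their values were seen. The genes, lists and tests were chosen with earlier results of these data known. Alternatives were quantile normalization, no scaling, median scaling, normexp (offset of 50, on median spot and background signals) with quantile normalization, an offset of 50, other detection filters, the brightest probe, the deposited table and centring on 10 reference genes. The lowest member of 1 other cell cycle list is not reported here. Counting was tested on simulated data. Python 3.11.15 with numpy 2.4.6 and pandas 2.3.3, matplotlib 3.10.9, and R 4.3.3 with limma 3.58.1 were used.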

Additional observations from a re-analysis of the deposited data

How the results depend on the processing

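The median log2 ratio of M+CMs to PCBs lay between -3.73 and -3.06 over 10 alternatives, with 39 or 40 of 40 genes at least 2-fold lower in each, and its distance from the median of all identifiers lay between -3.81 and -3.44. Some alternatives could not change these values. All 40 genes were detected in every array, so the detection filters left their ratios as they were, and the deposited table gave the same medians as no scaling. No scaling, median scaling and reference genes shift all ratios of a comparison alike, so the distance stayed at -3.68. The counts that follow include these alternatives. Of 150 recomputed medians and counts 25 moved, and of 1100 recomputed ratios of single genes 361 moved. The sign changed for 2 of 30 recomputed medians and 69 of 620 recomputed ratios, all of them between Flk1+ MPCs, sfPCBs and PCBs and all under 2-fold at the start. Scaling shifted the median of all identifiers by up to 0.74 (M+CMs against Flk1+ MPCs, reference genes as the centre) and by 0.46 for M+CMs against PCBs, and changes are best read relative to it. The median of the 40 genes moved as follows. For M+CMs against PCBs it was -3.73 without scaling and with the deposited table, and -3.06 with reference genes. For M+CMs against Flk1+ MPCs it was -4.21 with median scaling, -3.65 with normexp and quantile normalization, and -3.20 with reference genes. For sfPCBs against Flk1+ MPCs it was -0.14 without scaling and with the deposited table, and -0.13 with reference genes. For PCBs against Flk1+ MPCs it was -0.14 with reference genes. For PCBs against sfPCBs it lay between -0.07 and 0.13, and so had no settled sign.

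For PCBs against Flk1+ MPCs, the count of genes at least 2-fold lower was 1 in place of 3 with quantile normalization, no scaling, normexp and quantile normalization, the deposited table or reference genes. For PCBs against sfPCBs, the count at least 2-fold higher was 0 in place of 1 with no scaling, the offset of 50, the brightest probe, the deposited table or reference genes. For sfPCBs against Flk1+ MPCs, 1 gene in place of 0 was at least 2-fold higher with no scaling, normexp and quantile normalization, the deposited table or reference genes, and 7 in place of 2 were lower with median scaling. The small differences before day 10.5 thus depend on the processing, and the cause was not tested. No paired analysis was possible because each population had 1 array, and for the same reason no replicate could be left out.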

Other observations

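Transcripts of 2 of these genes were also listed under another RefSeq identifier, which did not belong to the 41. Ccne2, the other E-type cyclin, was read by 1 probe for NM_001037134, with signals of 71.2 for Flk1+ MPCs, 41.8 for sfPCBs, 42.2 for PCBs and 12.3 for M+CMs, and the last was not well above background. Its log2 ratio was -0.75 in PCBs against Flk1+ MPCs and 0.01 in PCBs against sfPCBs, beside 1.05 for Ccne1. A second Birc5 identifier, NM_001012273, had 20448, 20604, 20349 and 1423, and its log2 ratio of M+CMs to PCBs was -3.84, beside -3.95 for the transcript described above.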
